A study of Mus musculus with 8 samples.

Results

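The genes described here encode the subunits of the proteasome and the factors that carry the same symbols. They were taken by name, as every gene of the peak lists whose symbol starts with Psma to Psmg followed by a digit. The pattern took 41 genes of the 12413 genes with a peak, and 162 of 52954 listed peaks, of which 74 were PTC peaks in 37 genes and 88 were control peaks in 39 genes. There were 14 genes of the core (Psma and Psmb), 24 regulatory genes (Psmc, Psmd and Psme) and 3 others (Psmf1, Psmg2 and Psmg3). The regulatory genes were counted by symbol and so include Psmc3ip, which does not encode a subunit. N6-methyladenosine (m6A), a methylated adenosine of RNA, had been mapped by immunoprecipitation and sequencing in mouse primary T cells treated for 24 h with PTC, an agent that the labels name and do not describe, or kept as controls for 24 h. The 8 samples were 2 immunoprecipitates of PTC-treated cells, 2 inputs of PTC-treated cells, 2 immunoprecipitates of control cells and 2 inputs of control cells. Neither strain, age nor genotype of the mice is in the labels, nor whether the samples of a group came from separate animals or cultures. The tables used here hold 1 peak list per condition and no value per sample, so presence in a list has no replicate check and no test between PTC and control was possible.

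The proteasome is the protease that degrades proteins tagged with ubiquitin. Its core particle is a barrel of stacked rings of alpha and beta subunits in which certain beta subunits carry the active sites, and a regulatory particle with a ring of ATPases and a set of non-ATPase subunits binds ubiquitinated proteins, removes the ubiquitin, unfolds them and feeds them into the barrel. Lymphocytes also make the immunoproteasome, in which other catalytic beta subunits replace the constitutive ones and favour peptides that class I major histocompatibility molecules present. m6A is placed by a methyltransferase complex within short sequence motifs, often in long internal exons and around stop codons.

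GGACT is a frequent form of the m6A consensus, and some of its sites inside peaks of both lists are printed here. Whether these sites were methylated was not tested, and GGACT was about as frequent at peak midpoints as along these mRNAs. The sequences are those of GENCODE M21 transcripts (GRCm38), read 5′ to 3′ on the gene's own strand in windows of 25 nt, with the motif in capitals and the adenosine that can be methylated at position 3 of it. Psmd7 and Psmd8, non-ATPase subunits, were among the 6 strongest genes of both lists and are shown first. Psmf1, a proteasome inhibitor, held 1 in the 420 nt of its mRNA that lay in peaks of both lists. Within 50 nt to either side of the peak midpoints of Psmd7 and Psmf1 there was no GGACT. Psmb10, a catalytic immunoproteasome subunit, held a pair of sites near its start, and Psme3, a nuclear activator, held 1 just past its stop codon.
Psmd7, coding sequence, chr8:107581282-107581306, minus strand: actacagtggGGACTctctcccagc
Psmd7, coding sequence, chr8:107581238-107581262, minus strand: tggcttgaagGGACTgaactccaag
Psmd8, 3′ UTR, chr7:29174369-29174393, minus strand: ccagactgagGGACTcttctatcca
Psmd8, 3′ UTR, chr7:29174325-29174349, minus strand: gttgggccagGGACTagattttttt
Psmf1, 3′ UTR, chr2:151718193-151718217, minus strand: atactgcataGGACTacgggattcc
Psmb10, coding sequence, chr8:105937724-105937748, minus strand: cgtccttccgGGACTtcgggttcct
Psmb10, coding sequence, chr8:105937693-105937717, minus strand: cgcaagaccgGGACTaccatcgcgg
Psme3, 3′ UTR, chr11:101321882-101321906, plus strand: cagggccaggGGACTttgtgagtct

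Psma4, an alpha subunit and the strongest gene of the family in both lists, had no GGACT in its mRNA. The 391 nt of its mRNA that lay in peaks of both lists held the related letters GGACA at 2 places, both in the 3′ UTR, 124 and 183 nt past the first base of the stop codon.
Psma4, 3′ UTR, chr9:54957899-54957923, plus strand: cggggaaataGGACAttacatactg
Psma4, 3′ UTR, chr9:54957958-54957982, plus strand: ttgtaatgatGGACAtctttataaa

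Each peak carries a fold enrichment and a false discovery rate (FDR) that are the authors' own values. They are used to describe and rank peaks within a list, as fold and as −log10 FDR, and never to say that a peak is stronger in PTC than in control. The PTC list held 23368 peaks in 10859 genes and the control list 29586 peaks in 11390 genes. A summary in the authors' deposited table counts 15855 PTC and 19420 control peaks, fewer than the lists hold, with 33.03% of PTC reads and 36.07% of control reads in peaks. Read depth is unknown. All 11 T cell marker genes looked up (among them Cd3e, Cd4, Cd8a, Lck and Trac) had peaks in both lists, and so did 4 of 5 B cell genes, all but Cd79a, and 5 of 6 myeloid genes, all but Itgam. The highest −log10 FDR of Ms4a1, a B cell surface protein, was 134 in PTC and 217 in control, and that of Mpeg1, a macrophage protein, 151 in PTC and 174 in control. The part of such cells in the peaks of the proteasome genes was not tested.

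Most proteasome genes with a listed peak had peaks in both conditions. Of the 41 genes, 35 had a peak in both lists (85.4%, exact Clopper-Pearson 95% interval 70.8 to 94.4), where 79.2% of all listed genes and 84.2% of listed protein coding genes did. Psma2 and Psmg2 had peaks in the PTC list only (2 genes, 4.88%, 0.596 to 16.5), against 8.24% of all listed genes and 6.43% of the protein coding ones. Psma3, Psmb3, Psmc4 and Psmd9 had peaks in the control list only (4 genes, 9.76%, 2.72 to 23.1), against 12.5% of all listed genes and 9.37% of the protein coding ones. All 41 are protein coding, and their shares lay near the background when all peaks were counted. With peaks of a fold of at least 4 alone, 23 of the genes were listed and 7 of them were in both lists (30.4%), where 59.4% of all genes listed at that fold were. That fold was reached by 17.6% of PTC and 26.1% of control proteasome peaks, against 45.2% of all PTC and 45.0% of all control peaks. The part of these lower folds in the 30.4% was not tested. The intervals given cover counting error only. Fewer cells with a transcript, less RNA per cell and less m6A per transcript cannot be told apart where a gene has no peak.

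Of 50 annotated coding genes of the name pattern, 9 had no peak in either list used here: Psma5, Psma8, Psmb5, Psmb7, Psmb11, Psmd2, Psme2, Psmg1 and Psmg4. Psmb5 and Psmb7 encode the chymotrypsin-like and trypsin-like catalytic subunits of the constitutive core. Psma8 and Psmb11 encode subunits of testis and of thymus cortex. The pseudogenes Psmb5-ps, Psmb6-ps, Psmb6-ps2 and Psmb7-ps2 had none. Genes with a peak held 2.0 PTC peaks on average and 2.26 control peaks, where protein coding genes held 2.31 PTC and 2.85 control peaks. There were more PTC than control peaks in 11 genes, more control than PTC peaks in 18, and equal numbers in 12. The control list was the longer one as a whole, with 29586 peaks against 23368 in the PTC list. No such counts over all listed genes stand beside these, so the tilt to control is not shown to be particular to proteasome genes.

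**Figure D1:**
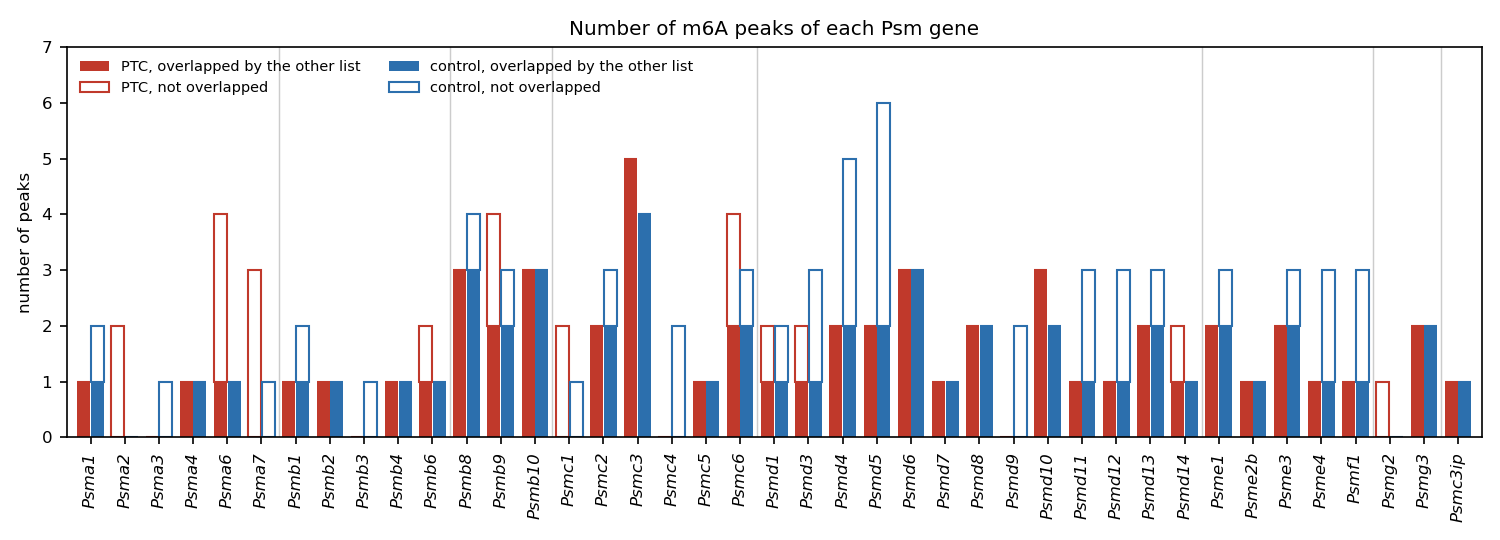
Number of m6A peaks (y axis) of each of the 41 genes (x axis, grouped by role between grey lines) in the PTC list (red) and the control list (blue). Filled parts share at least 1 bp with a peak of the other list and open parts do not, and 19 of 74 PTC peaks and 35 of 88 control peaks are open.

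The alpha ring forms the gates of the core particle, and its genes ranged from the strongest of the family to one of the weakest. Psma4 held 1 peak per list at the end of its mRNA. The PTC peak (chr9:54956880-54958030) had fold 3.63 and a −log10 FDR of 138, and the control peak (chr9:54957640-54958030) had fold 3.29 and 135. Both covered the stop codon, and they stood at the 96.0th percentile of genes in the PTC list and the 98.0th in the control list. Psma2 held 2 PTC peaks and no control peak. One covered the stop codon (chr13:14625383-14625592, fold 1.56, −log10 FDR 9.13). The other was a spliced peak of 120 nt (chr13:14627592-14673549, fold 5.27, −log10 FDR 2.03), of which 45 nt lay in the exons of the Psma2 mRNA. Psma3 held a single control peak of 121 nt (chr12:70984727-70986872, fold 2.24, −log10 FDR 2.54), of which 29 nt lay in the exons of its mRNA.

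The remaining alpha genes had peaks in both lists, with more in PTC for Psma6 and Psma7. Psma6 held 4 PTC peaks and 1 control peak, and Psma7 held 3 PTC peaks and 1 control peak. The highest −log10 FDR of Psma6 was 6.93 in PTC and 5.75 in control, and that of Psma7 was 7.51 in PTC and 22.5 in control. None of the Psma7 peaks overlapped between the lists: the PTC midpoints lay at 19, -213 and -685 nt from the first base of the stop codon, where negative values are upstream, and the control midpoint at -497 nt. Psma1 held 1 PTC peak (−log10 FDR 35.6) and 2 control peaks (10.9 and 2.66). Of 11 PTC peaks in alpha genes 3 were overlapped by a control peak (27.3%, 6.02 to 61.0), and of 6 control peaks 3 were overlapped by a PTC peak (50%, 11.8 to 88.2), where 78.8% of all PTC peaks and 60.2% of all control peaks were overlapped.

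Of the 5 beta ring genes of the constitutive core with a peak, Psmb2 and Psmb4 held 1 peak in each list, and these were the strongest of the group in both. Psmb4, a non-catalytic subunit, had a PTC peak of fold 3.65 and −log10 FDR 61.4 and a control peak of fold 3.27 and 67.2 in the same place (chr3:94886465-94886931 in PTC and chr3:94886187-94886961 in control), with 346 of 444 nt and 435 of 533 nt in mRNA exons. Psmb2, another non-catalytic subunit, had a PTC peak at its start with fold 2.85 and −log10 FDR 58.8, and a control peak with fold 1.83 and 24.1. These peaks reached the 84.0th percentile of genes in the PTC list and the 68.4th in the control list. Psmb1 held 1 PTC peak (−log10 FDR 34.4) and 2 control peaks (14.8 and 2.85). Psmb6, the caspase-like catalytic subunit, was the only constitutive catalytic gene with a peak. It held PTC peaks of fold 2.24 (−log10 FDR 10.8) near the start and 1.62 (3.0) near the end of the coding sequence, and 1 control peak of fold 1.95 (5.86) that overlapped the second of them. Psmb3, a non-catalytic subunit, held 1 control peak (chr11:97707506-97707775) with fold 20.9 and −log10 FDR 4.8, and no base of it lay in the exons of the mRNA.

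All 3 catalytic genes of the immunoproteasome had peaks in both lists, 10 PTC and 10 control peaks in all, and 8 of each were overlapped (80%, where 78.8% of all PTC and 60.2% of all control peaks were). Psmb8, the chymotrypsin-like subunit, held 3 PTC peaks with folds of 3.57, 2.65 and 1.81 and −log10 FDR of 11.2, 12.4 and 51.2 along the gene, and 4 control peaks with folds of 2.77, 4.94, 2.11 and 1.83 and −log10 FDR of 6.44, 63.4, 2.23 and 43.2. The highest −log10 FDR was thus at the stop codon in PTC (chr17:34200749-34201424) and in the middle of the gene in control (chr17:34199607-34200392), with overlapping peaks of the other list at both places. The gene model Gm20496 overlaps exons under the middle peaks, and reads of the pair cannot be told apart there. Psmb10 held 3 peaks in each list at matching places. Along the mRNA its PTC peaks had folds of 4.16, 2.49 and 1.61 and −log10 FDR of 17.5, 5.16 and 3.03, and its control peaks had folds of 5.14, 3.5 and 1.72 and −log10 FDR of 23.9, 17.8 and 3.64. Psmb9, which takes the place of Psmb6 in the immunoproteasome, held 4 PTC peaks with folds of 3.12, 4.68, 2.23 and 1.88 (−log10 FDR 14.3, 5.38, 4.81 and 5.45) and 3 control peaks with folds of 2.07, 2.9 and 3.13 (8.22, 1.99 and 7.64), from start to end. Its PTC peak over the stop codon had no control partner, and its first peaks also lay on an exon of the neighbouring gene Tap1, which encodes a peptide transporter.

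The ATPase ring unfolds substrates, and 5 of its 6 genes had peaks in both lists, with 14 PTC and 14 control peaks. Psmc4 was the exception, with control peaks of fold 1.66 (−log10 FDR 13.2) and 1.49 (4.54) and no PTC peak. Psmc3 held the most, 5 PTC peaks and 4 control peaks, all overlapped by the other list, with a highest −log10 FDR of 23.4 in PTC and 30.1 in control. Psmc6 held 4 PTC and 3 control peaks (11.1 and 8.27 at most), and Psmc2 held 2 PTC and 3 control peaks (24.3 and 20.2 at most). The last control peak of Psmc2 ran over 9 exon blocks and 1049 nt, and the PTC peak inside it over 3 blocks and 480 nt. Psmc5 held 1 spliced peak in each list (10.2 in PTC and 19.4 in control). Psmc1 had peaks in both lists that did not meet: PTC peaks over the stop codon (fold 2.01, −log10 FDR 10.1) and outside the mRNA exons (fold 23.3, 5.43), and a control peak in the coding sequence (fold 2.55, 5.01).

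The non-ATPase subunits and Psmd-named chaperones held 23 PTC peaks in 12 genes and 36 control peaks in 13 genes. Psmd7, the partner of the deubiquitinase Psmd14, led them with 1 peak per list. Its PTC peak (chr8:107580411-107582424, 952 nt of exon) had fold 3.46 and −log10 FDR 111, and its control peak (chr8:107580530-107584183, 893 nt) had fold 3.89 and 122. Psmd8 held 2 peaks per list, both overlapped. Its 3′ UTR peak had fold 3.28 and −log10 FDR 57.7 in PTC and fold 3.36 and 33.3 in control, and its peak near the start of the coding sequence had fold 1.56 and 6.71 in PTC and fold 1.62 and 12 in control. These peaks hold the GGACT sites printed above for both genes.

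Extra control peaks were most numerous in Psmd5 and Psmd4. Psmd5, an assembly chaperone of the regulatory particle, held 2 PTC peaks and 6 control peaks, and its highest −log10 FDR was 43.0 in PTC and 29.6 in control. Psmd4, a ubiquitin receptor, held 2 PTC peaks and 5 control peaks, with 8.92 in PTC and 14.4 in control at most. In both genes all PTC peaks were overlapped by a control peak. Psmd9, an assembly chaperone, held 2 control peaks of fold 2.99 (−log10 FDR 3.14) and 2.67 (2.69) and no PTC peak. The deubiquitinase gene Psmd14 held 2 PTC peaks and 1 control peak, and the PTC peak over its stop codon (fold 1.79, −log10 FDR 11.5) had no control partner. Psmd10, the chaperone gankyrin, held 3 PTC and 2 control peaks. The scaffold gene Psmd1 and the structural subunits Psmd3, Psmd6, Psmd11, Psmd12 and Psmd13 had peaks in both lists, with a highest −log10 FDR from 4.75 (Psmd6) to 40.6 (Psmd3) in PTC and from 6.8 (Psmd6) to 16.1 (Psmd3) in control.

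Activator and inhibitor genes held 7 PTC peaks, all overlapped, and 13 control peaks, of which 7 were overlapped (53.8%, 25.1 to 80.8), beside 78.8% of all PTC and 60.2% of all control peaks. Psme1, a subunit of the interferon-inducible activator, had PTC peaks of fold 1.77 (−log10 FDR 4.07) and 2.6 (3.69), and control peaks of fold 12 (21.9), 1.83 (4.72) and 1.74 (4.67). Its strongest control peak and the first PTC peak lay on the same stretch at the start of the mRNA (chr14:55578473-55579633 in PTC and chr14:55578413-55579663 in control). Psme2b had 1 peak in each list, of fold 1.64 and −log10 FDR 29.5 in PTC and fold 1.47 and 18.8 in control. It is an intronless copy of Psme2, which encodes the partner of Psme1 and had no peak, so its reads may be shared with Psme2 and its values are uncertain. Psme3 had PTC peaks of fold 1.87 (15.6) and 1.66 (9.23) and control peaks of fold 2.29 (31.4), 2.23 (19.8) and 1.35 (5.23). Its second control peak ran over 6 blocks and 953 nt around the stop codon, and the PTC peak inside it over 150 nt. Psme4, a large nuclear activator, had 1 PTC peak in the 3′ UTR of fold 2.27 (8.25), and control peaks of fold 2.51 (2.96) and 2.85 (5.75) in the coding sequence and 2.12 (4.33) in the 3′ UTR. Those 3′ UTR peaks, chr11:30879942-30880241 in PTC and chr11:30879792-30879942 in control, shared a single base at their ends. Psmf1 had 1 PTC peak of fold 4.5 (27.9), and control peaks of fold 1.81 (5.09) in the 5′ UTR and of fold 8.22 (34.6) and 5.08 (3.45) in the 3′ UTR.

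Assembly and named-alike genes closed the list. Psmg3, a chaperone of core assembly, held 2 peaks per list, all overlapped, with a highest −log10 FDR of 22.3 in PTC and 21.6 in control, and one of each pair lay on an exon of the gene model Gm26938. Psmg2, another core chaperone, held 1 PTC peak of 118 nt in the 3′ UTR with fold 2.02 and −log10 FDR 2.16, at the 2.44th percentile of the genes of its list, and no control peak. Psmc3ip, a meiotic recombination factor that shares only the symbol, held 1 overlapping peak per list (fold 3.12 and 5.57 in PTC, fold 2.57 and 5.72 in control).

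**Figure D2:**
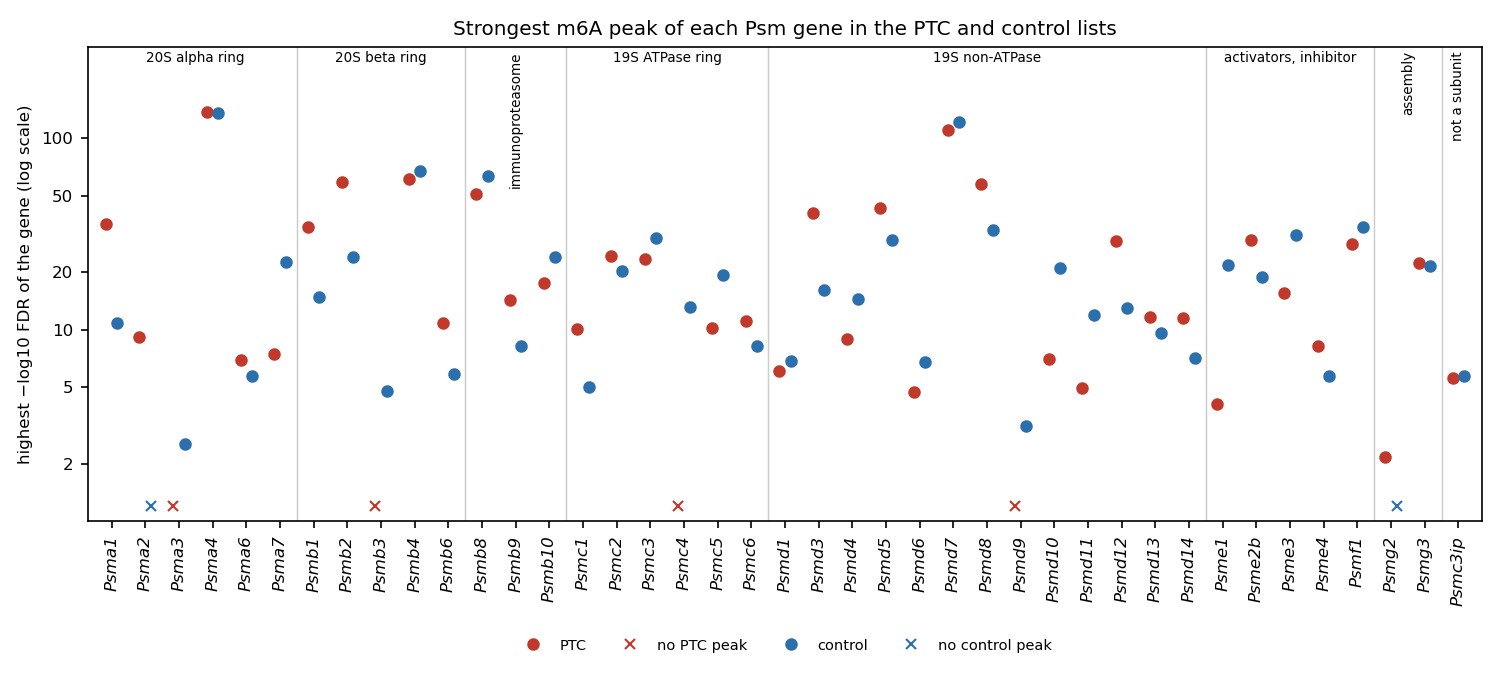
Highest −log10 FDR (log axis) of each gene among its PTC peaks (red) and among its control peaks (blue), with crosses at the foot where a list holds no peak of the gene. Psma4 and Psmd7 lie above 100 in both lists, and the 6 genes of a single list lie between 2.16 and 13.2, values that are ranks within a list and not a comparison between them.

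As a set, proteasome peaks were shorter and of lower fold than those of other protein coding genes in the same list. The median fold was 2.3 for PTC and 2.81 for control peaks, against 3.65 for PTC and 3.61 for control peaks of all protein coding genes. A fold of at least 4 was reached by 13 PTC peaks (17.6%) and 23 control peaks (26.1%), where 45.2% of all PTC peaks and 45.0% of all control peaks reached it. Their −log10 FDR was not lower: 68.9% of PTC and 64.8% of control peaks had 5 or more, where 59.8% of all PTC and 53.4% of all control peaks had. The median width was 210 nt in both lists, against 271 nt for PTC and 270 nt for control peaks of protein coding genes. The median mRNA length of the 41 genes was 1540 nt, against 3060 nt for listed protein coding genes.

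Peaks of these genes were more often spliced over several exons than those of other genes. At least 2 exon blocks were held by 44.6% of PTC peaks (33.0 to 56.6) and 39.8% of control peaks (29.5 to 50.8), against 24.7% of PTC and 29.2% of control peaks of all protein coding genes. The exon at the midpoint had a median length of 265 nt for PTC and 216 nt for control peaks, against 1430 nt for PTC and 1300 nt for control peaks of protein coding genes. Of midpoints in the mRNA, 50% of PTC and 35.2% of control ones were in the last exon, against 66.1% of PTC and 60% of control ones in all protein coding genes. The median exon length over the whole mRNAs was closer, 117 nt in the 41 genes and 134 nt in listed protein coding genes.

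Within the mRNA, midpoints lay mostly in coding sequence, and a larger share of PTC than of control midpoints lay near the stop codon. Percentages of midpoints here are of all peaks of a set, also those with a midpoint outside the mRNA exons. Coding sequence held 52.7% of PTC and 53.4% of control midpoints, against 39.8% of PTC and 41.1% of control midpoints of all protein coding genes. Of midpoints in the mRNA exons, it held 39 of 66 in PTC and 47 of 71 in control. Coding sequence made up 59.0% of the bases of these mRNAs and 50% of those of listed protein coding genes. The 3′ UTR held 28.4% of PTC and 19.3% of control midpoints, against 45.8% of PTC and 41.9% of control midpoints of protein coding genes. A midpoint within 200 nt of the stop codon was found for 29 of 74 PTC peaks (39.2%, 28.0 to 51.2) and 16 of 88 control peaks (18.2%, 10.8 to 27.8). Among protein coding genes it was 20.4% of PTC and 15% of control peaks. Of midpoints in the mRNA exons of the 41 genes, 29 of 66 in PTC and 16 of 71 in control lay there. The same neighbourhood made up 19.6% of the bases of the proteasome mRNAs and 10.9% of those of listed protein coding genes. Of midpoints in the mRNA exons, the control share was thus close to the share of bases and the PTC share above it. For all protein coding genes, 4274 of 18957 such midpoints in PTC and 4023 of 23509 in control lay there. Both of those shares were above the 10.9% of bases. A PTC share above the share of bases was thus not particular to proteasome genes.

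Counted by gene, 28 genes had a PTC midpoint within 200 nt of the stop codon and 16 had a control midpoint there, 15 of them in both. The 13 genes with such a PTC midpoint and no such control midpoint were Psma1, Psma2, Psma6, Psma7, Psmb9, Psmb10, Psmc1, Psmc2, Psmd8, Psmd10, Psmd11, Psmd14 and Psmg2, 31.7% of the 41 genes, and the reverse held for Psmd3 alone (2.44%). Over all listed protein coding genes those shares were 14.8% with a PTC midpoint alone and 12.3% with a control midpoint alone. The midpoint moves with the length of a peak, and of the 13 genes Psma1, Psmb9, Psmc2, Psmd8 and Psmd10 also had a control peak with some base within 200 nt. By any base, 48.6% of PTC and 31.8% of control peaks were that near, against 35.7% of PTC and 28.7% of control peaks of protein coding genes. They lay in 31 genes in PTC and 26 in control, 8 of them in PTC and not in control (19.5% of the 41 genes) and 3, Psmc4, Psme1 and Psme4, in control and not in PTC (7.32%), where those shares were 9.13% and 9.62% of listed protein coding genes. The stop codon itself was covered by 29.7% of PTC peaks (19.7 to 41.5) and 18.2% of control peaks (10.8 to 27.8), against 24.9% of PTC and 19.6% of control peaks of protein coding genes. It was covered in PTC and not in control for Psma1, Psma2, Psma6, Psma7, Psmb9, Psmc1, Psmd8 and Psmd14 (19.5% of the 41 genes), and in control and not in PTC for Psmb6 and Psmc6 (4.88%), where those shares were 8.93% and 9.13% of listed protein coding genes.

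**Figure D3:**
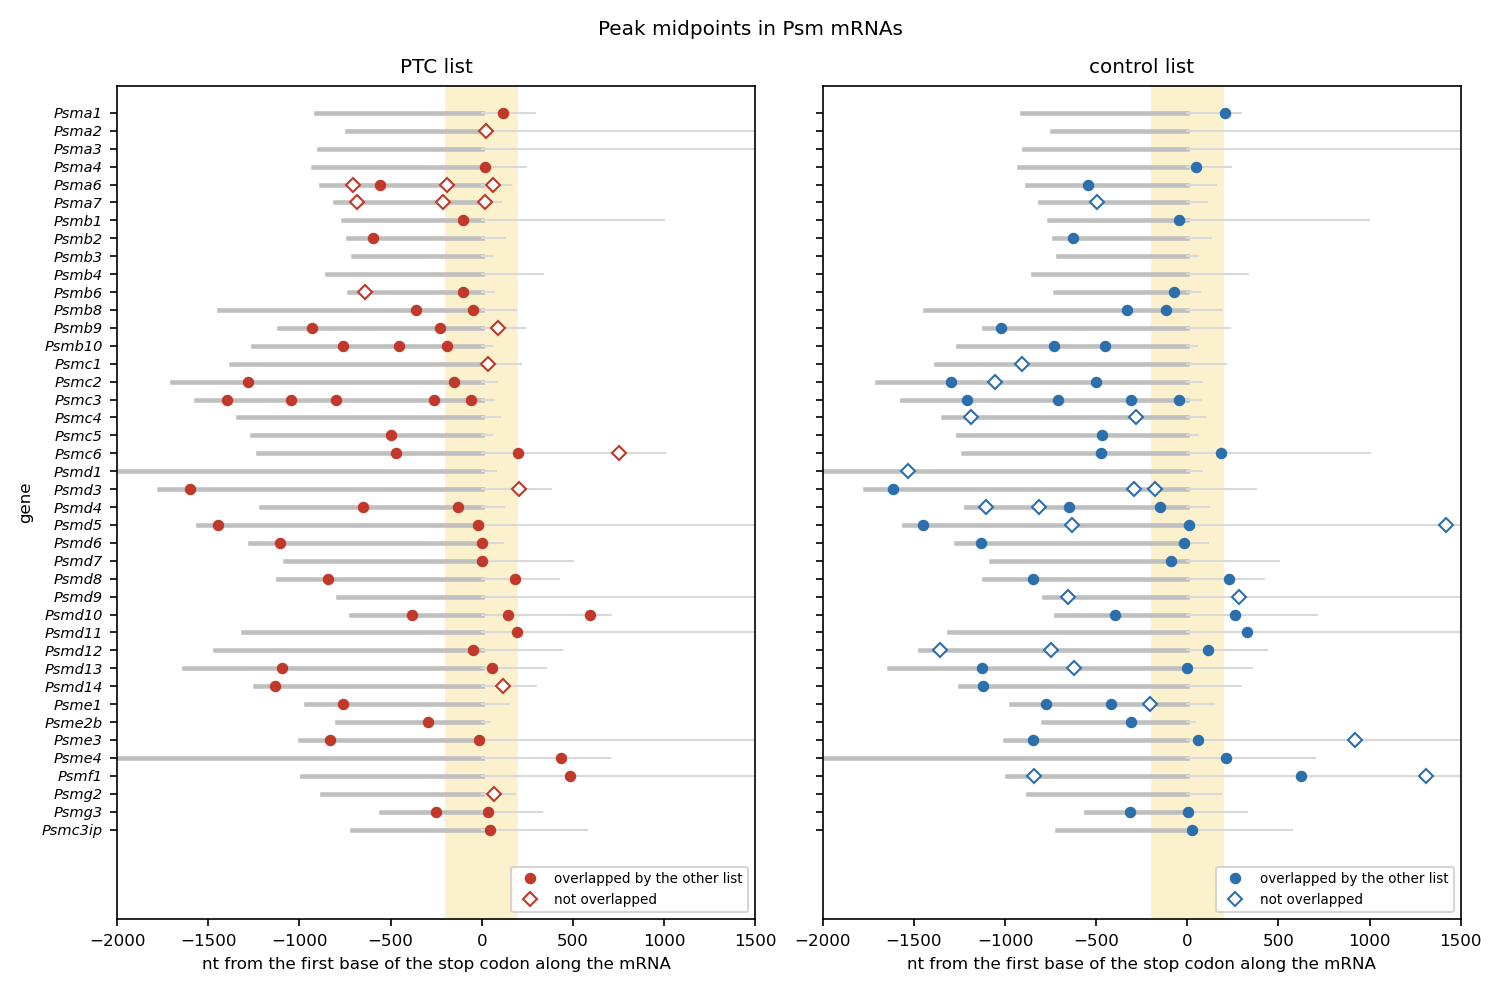
Midpoints of PTC peaks (left) and control peaks (right) along the mRNA of each gene, in nt from the first base of the stop codon (x axis), with thick grey for sequence before the stop codon, thin grey for the 3′ UTR, and the yellow band for 200 nt on either side. Filled circles have a partner in the other list and open diamonds have none, 8 PTC diamonds and 1 control diamond lie in the band, and 8 PTC and 17 control midpoints outside the mRNA exons and 2 PTC and 3 control midpoints beyond the axis are not drawn.

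The shares near the stop codon were also taken apart by overlap between the lists. Of 74 PTC peaks 55 shared at least 1 bp with a control peak (74.3%, 62.8 to 83.8), where 78.8% of all PTC peaks did, and of 88 control peaks 53 shared at least 1 bp with a PTC peak (60.2%, 49.2 to 70.5), where 60.2% of all control peaks did. Among overlapped peaks a midpoint near the stop codon was held by 38.2% of PTC (25.4 to 52.3) and 28.3% of control peaks (16.8 to 42.3), against 21.4% of PTC and 20.5% of control peaks of all protein coding genes with overlap. Among the others it was held by 8 of 19 PTC peaks (42.1%, 20.3 to 66.5) and 1 of 35 control peaks (2.86%, 0.0723 to 14.9). These shares also count peaks with a midpoint outside the mRNA exons, which cannot lie near a stop codon by this measure. Of such peaks 4 of 8 in PTC and 5 of 17 in control were overlapped, so they weigh more on the control peaks without overlap. For peaks of all protein coding genes without overlap the shares were 16.5% in PTC and 6.82% in control, so PTC and control lay further apart without overlap there too. The median −log10 FDR of overlapped peaks was 9.23 in PTC and 12 in control, and that of the others 5.27 in PTC and 3.73 in control. The 55 overlapping pairs shared a median of 90% of the PTC peak and 83.3% of the control peak, and 45 pairs shared at least 50% of both.

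Overlap was also counted for core and regulatory genes, beside 78.8% of all PTC peaks and 60.2% of all control peaks. Core genes had 26 PTC and 22 control peaks, of which 57.7% of PTC (36.9 to 76.6) and 68.2% of control peaks (45.1 to 86.1) were overlapped. Regulatory genes had 44 PTC and 61 control peaks, of which 84.1% of PTC (69.9 to 93.4) and 57.4% of control peaks (44.1 to 70.0) were overlapped, in the order of the lists as a whole. The regulatory counts include Psmc3ip, which is not a subunit, with 1 overlapped peak per list. The intervals of core and regulatory genes overlap in both lists, and peaks of 1 gene share a transcript. Near the stop codon lay 42.3% of PTC and 18.2% of control midpoints of core genes, and 36.4% of PTC and 18% of control midpoints of regulatory genes. These shares count all peaks, and 10 of 22 control midpoints of core genes lay outside the mRNA exons. At least 2 exon blocks were held by 65.4% of PTC and 45.5% of control peaks of core genes, and by 36.4% of PTC and 39.3% of control peaks of regulatory genes. The median of the strongest −log10 FDR per gene was 25.9 in PTC and 14.8 in control for core genes, and 11.3 in PTC and 13.8 in control for regulatory genes.

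**Figure D4:**
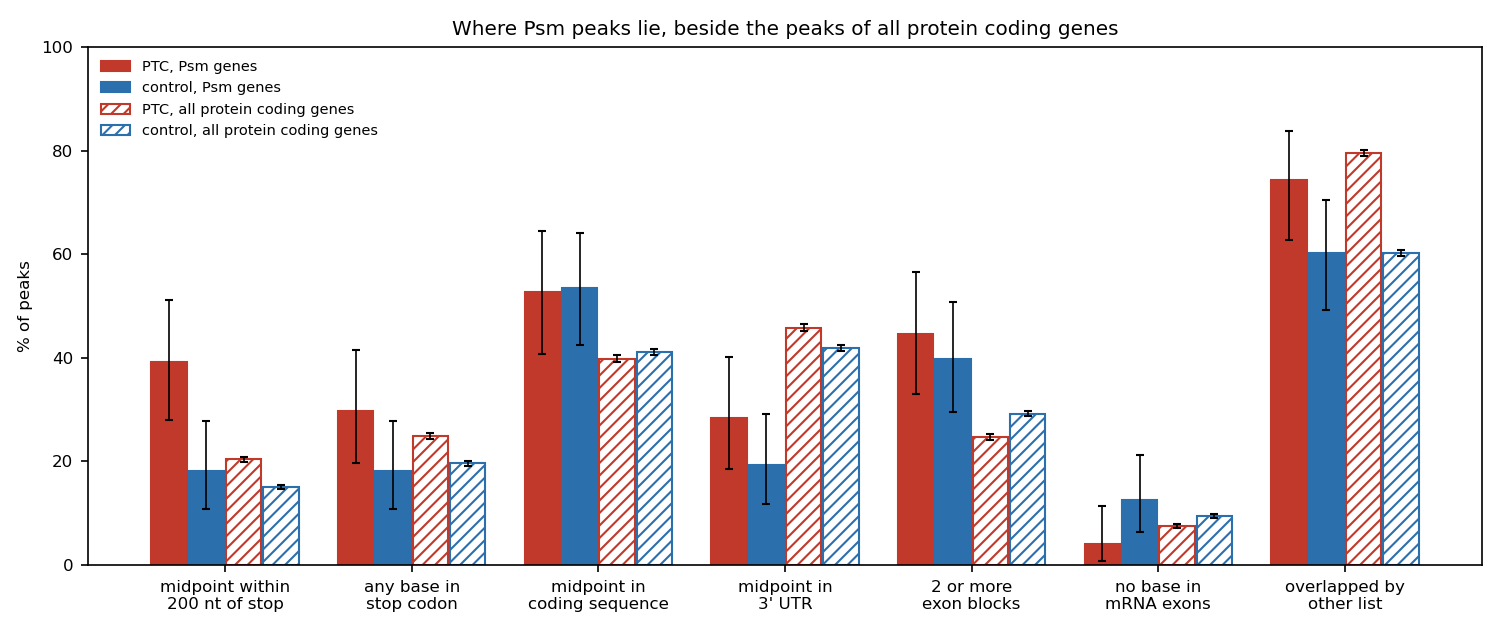
Percent of peaks (y axis) of the 41 genes (filled) and of all protein coding genes (hatched) in the PTC list (red) and the control list (blue) with each property on the x axis, with exact 95% intervals for counting error. The filled PTC bar for midpoints near the stop codon stands at 39.2%, with the control bar at 18.2%, and the proteasome bars are above the hatched ones for coding sequence and exon blocks and below them for the 3′ UTR.

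A further set of peaks lay outside the exons of the mRNA. No base of the mRNA exons was held by 3 PTC peaks (4.05%, 0.844 to 11.4), in Psmb8, Psmb9 and Psmc1, and by 11 control peaks (12.5%, 6.41 to 21.3), in Psma1, Psmb1, Psmb3, Psmb8, Psmb9, Psmc6, Psmd5 and Psmd11. For protein coding genes it was 7.47% of PTC and 9.51% of control peaks. Their midpoints lay in exons of other annotated transcripts of the same genes, classed as retained intron for 2 PTC and 8 control peaks and as processed transcript for 1 PTC and 3 control peaks. Their folds included the highest PTC fold of the family, 23.3 for Psmc1, and the 3 highest control folds, 20.9 for Psmb3, 17.2 for Psmd5 and 13.5 for Psmd11, and the other such control peaks had folds from 2.11 to 8.6. Of the 11 control peaks 1 was overlapped by a PTC peak (9.09%, 0.23 to 41.3), and of the 3 PTC peaks 1 by a control peak. Their −log10 FDR ranged from 5.38 to 11.2 in PTC and from 1.93 to 6.44 in control.

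GGACT was about as frequent at these midpoints as along the mRNAs. In a window of 50 nt to either side of the midpoint, searched on the RNA strand, it was found for 7 PTC peaks (9.46%, 3.89 to 18.5) and 8 control peaks (9.09%, 4.01 to 17.1), against 13.3% of PTC and 11.6% of control peaks of protein coding genes. Of all windows of that length 11.4% held it in the proteasome mRNAs and 9.99% in mRNAs of listed protein coding genes. GGACA, whose letters cannot overlap a GGACT, was found for 8.11% of PTC peaks (3.03 to 16.8) and 17.0% of control peaks (9.87 to 26.6), against 15% of PTC and 13.8% of control peaks of protein coding genes, and in 12.5% of windows of the proteasome mRNAs and 12.6% of windows of the others. Over whole peaks, 17 genes had a GGACT in a PTC peak, 19 in a control peak and 13 in peaks of both lists, at 25 sites in PTC peaks and 34 in control peaks, 19 of them shared. Psma1, Psma4, Psma7, Psmb4, Psmd10, Psme1 and Psmg2 had none in the mRNA. Sites covered by control peaks alone are not printed, and Psmb8 held 2 of these in its coding sequence. The 3′ UTR of Psma6 and of Psmb8 held a GGACT in PTC peaks at the stop codon that no control peak covered. The Psma6 peak had fold 1.21 and −log10 FDR 2.43. The control peak at the stop codon of Psmb8 ended at chr17:34201305, short of the site. These sites are shown because they are the 3′ UTR sites of core genes that PTC peaks alone covered.
Psma6, 3′ UTR, chr12:55418411-55418435, plus strand: tgactggttaGGACTctgtataaat
Psmb8, 3′ UTR, chr17:34201317-34201341, plus strand: cagagacctgGGACTacttcagtct

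Genes that work with the proteasome but carry other symbols also had peaks mostly in both lists. Of 28 such genes (receptors and shuttles of ubiquitin, associated factors, ubiquitin genes and transcription factors of subunit genes) 25 carried peaks, of which 23 did so in both lists, 2 in control only and none in PTC only, where 79.2% of all listed genes were in both. They held 43 PTC and 66 control peaks. Unlike the 41 genes, these were not chosen for having a peak. The 2 in control only were Akirin2, a nuclear import factor of the proteasome, with 1 control peak (−log10 FDR 5.57), and Ubqln1, a shuttle protein, with 3 (9.48 at most). Adrm1, a ubiquitin receptor, and Txnl1 had no peak, and the symbol Paaf1 was not found in the annotation. The highest −log10 FDR belonged to Nfe2l2 (213 in PTC and 111 in control) and Nfe2l1 (150 in PTC and 106 in control). Nfe2l1 encodes the transcription factor that raises subunit genes when proteasome activity is short, and its activation needs the protease Ddi2 (92.1 in both PTC and control). Ubb, a polyubiquitin gene, had 143 in PTC and 103 in control.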

How the data were processed

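Groups came from the sample titles. The deposited peak lists give, per the file headers, a fold enrichment (taken as immunoprecipitate over input, scaling not stated) and a log10 FDR score for each peak, both the authors' values. BWA 0.7.12, MACS2 2.1.0 and the build GRCm39 are named, per the submitters' processing notes, with no role. For the caller, its threshold and any pooling of samples the answer is not given in the sources used here. Of the listed peaks 99.8% in each list lay inside the gene of the same identifier in GENCODE M21, so positions are read as GRCm38, counted from 1, and none was converted.

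For each gene 1 protein coding transcript served as its mRNA. A peak was placed by the midpoint of its exon blocks, the 3′ UTR was counted from the stop codon, and peaks of the lists were matched at 1 bp or more on the same strand. Functions were tested on simulated data (Python 3.11.15, pandas 2.3.3, scipy 1.17.1). Values of every peak were to be given for catalytic, immunoproteasome, activator and inhibitor genes, genes in 1 list only and the 6 strongest genes of each list, and others by range. The gene family, the lists and the tests were chosen with earlier results of these data known, and the members within the family follow from their symbols. A planned count test was not run, as no file holds counts per sample.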

Additional observations from a re-analysis of the deposited data

How the results depend on the processing

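With a −log10 FDR of at least 5, 1 of 37 genes was in PTC only (2.7%), where 9.86% of all genes listed at that FDR were. With the assembled particle alone 1 of 30 genes was (3.33%), against 8.24% of all listed genes. With a fold of at least 4, 6 of 23 genes were in PTC only (26.1%), 10 in control only (43.5%) and 7 in both lists (30.4%), where 16.0%, 24.6% and 59.4% of all genes were. A smaller share of proteasome peaks than of all peaks reached that fold. The overlapped share of PTC peaks was 60.8% when 50% of each peak had to be shared and 38.5% at a fold of at least 4 (13 peaks), and that of control peaks at that fold was 21.7% (23 peaks). No share over all peaks at these settings stands beside them, so a low overlap there is not shown to be particular to these genes. Within 100 nt of the stop codon lay 23% of PTC midpoints, and 12.5% of control midpoints. No share over protein coding genes at that distance stands beside them. By any base within 200 nt, an alternative chosen after seeing the data like the next 2, the control share was 31.8%. It was 18.2% by any base of the stop codon and 20.5% with lists of equal length, the latter with no share over protein coding genes beside it. Over all exon blocks GGACT was in 28.4% of 74 PTC and 26.1% of 88 control peaks, with no such share over all peaks to set beside it. Of 41 alternatives 29 moved a value by less than its counting interval, or a count by less than 1.5 times. No replicate could be left out, and no paired analysis was possible because the tables used hold no sample's own values.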
